A study of Mus musculus with 8 samples.

Results

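The accessible chromatin of EpRas cells was compared between cells given TGF-β and cells left untreated, by formaldehyde-assisted isolation of regulatory elements (FAIRE)-seq. EpRas is the derivative of EpH4, a line of normal mouse mammary gland epithelium, that was transformed with oncogenic H-Ras, and each is a single line. All the EpRas libraries therefore carry the Ras transgene. The treated cells received 1 ng/ml TGF-β3 for 8 days, and the untreated cells were grown for the same 8 days without it. There were 2 libraries of each, 4 of the 8 libraries in the series, and the other 4 are EpH4 cells under the same treatments, which the study grew at a higher serum content. The study describes the libraries as biological replicates, but the labels do not say whether they came from separate cultures. A region was taken as open in a condition when the peaks of both replicates, merged where they shared at least 1 bp, included a call in each. Over all 4 lists, the 75164 peaks made 31982 regions, out of 37230 regions in the whole series. Of these, 15038 were open in the treated and 10683 in the untreated cells. A region open in the treated cells and without an untreated counterpart is called gained below (6305 regions, 41.9% of those open in treated cells), the reverse is called lost (1960, 18.3% of those open in untreated cells), and 8715 were shared.

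TGF-β is a secreted cytokine that binds paired type I and type II receptor kinases, which phosphorylate Smad2 and Smad3. These join Smad4, enter the nucleus and act on genes together with other DNA-binding factors, among them AP1 (dimers of Jun and Fos proteins). In breast epithelium the pathway arrests growth, and in Ras-transformed cells it can drive epithelial-mesenchymal transition (EMT), in which cell junctions are given up for a motile, matrix-producing state. FAIRE recovers DNA that crosslinked nucleosomes do not hold, so a peak marks an open site: a promoter, an enhancer or an insulator, where the protein CTCF often binds. A peak in a population of cells does not say whether more cells had the site open or whether each had it more open, and the 2 cannot be told apart here.

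The treated replicate 1 library stood apart from the other EpRas libraries. Its list held 27337 peaks, against 16833 in treated replicate 2 and 17210 and 13784 in untreated replicates 1 and 2. Its median score was 18.14, above 16.03 in treated replicate 2 and 15.05 and 14.92 in the untreated libraries. The score is the −log10 of a p-value, as its values show, so that a higher score means stronger evidence for a peak. At the shared regions its median was 29.8 in treated replicate 1, 19.3 in treated replicate 2 and 18.8 and 16.7 in the untreated libraries. Read numbers are unknown, but the scores of many peaks lay on a fixed ladder of values from which the average background coverage could be read. It was 1.66 and 1.71 reads in the treated and 1.62 and 1.70 in the untreated libraries, a range of 1.06-fold. The longer list therefore did not go with a higher background coverage. In treated replicate 1, 44.9% of peaks had no counterpart in the other treated library, against 10.5% the other way round and 37.8% and 22.3% between the untreated libraries. For this reason the results are given also for the 13784 highest-scored peaks of every list (equal lists), and without treated replicate 1 where it matters.

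**Figure D1:**
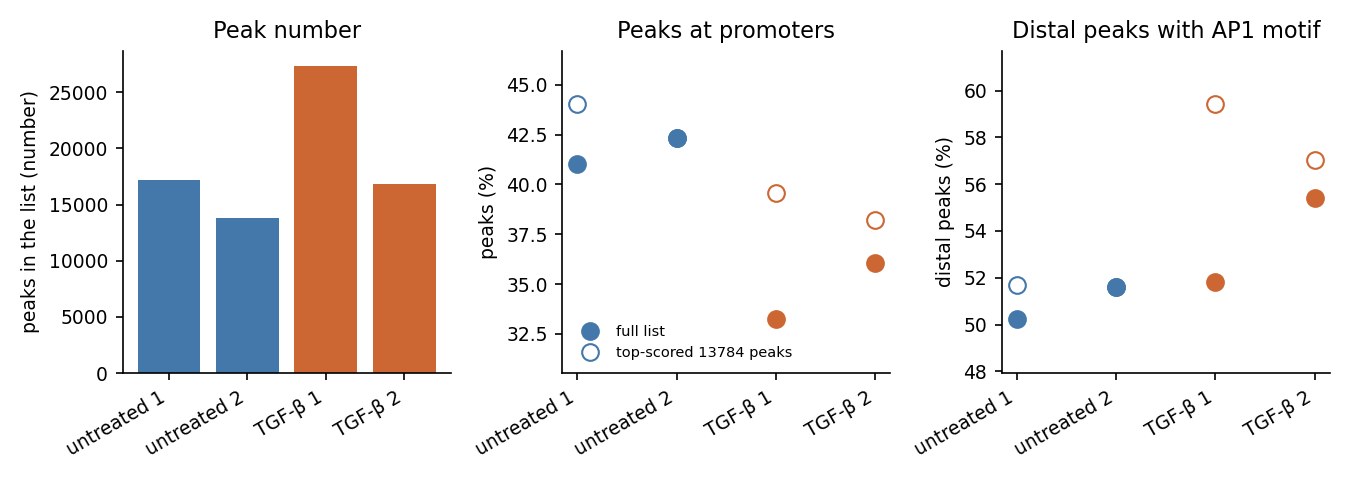
Peaks per list (bars), share of peaks at promoters and share of distal peaks with the AP1 motif (points) in the 4 EpRas libraries, filled for the full list and open for the 13784 top-scored peaks, with both share axes starting above 0. Treated replicate 1 has the most peaks (27337), and both treated libraries have a lower promoter share (33.2% and 36.1%) than the untreated ones (41.0% and 42.3%).

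The lists carried few of the open promoters by which a cell type could be recognised. Of 12 epithelial marker genes, 4 and 1 had a promoter peak in the untreated and 6 and 1 in the treated libraries, only *Cldn3* (a tight junction claudin) in all 4, and 6 genes, *Epcam*, *Cdh1* and *Grhl2* among them, in none. No endothelial or adipocyte marker promoter had a peak (0 of 7 and 0 of 6 genes). Of the 9 immune markers 1 or 2 had one, of the 6 neuronal markers 0 or 1, and of the 8 fibroblast markers 1 to 3, with *Col1a2* in every library. A missing peak in lists of this length does not show a closed promoter.

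To show what the gained and lost sites look like, the sequences of the leading distal regions follow, on the + strand of GRCm38 (the build of mm10), with matches of the AP1 motif (TGAGTCA or TGACTCA) or of the CTCF motif in capitals. The first set holds the 3 gained distal regions with the highest scores. Each has 1 AP1 match, and none had a peak in an untreated EpRas library. They lie at chr4:87047222-87047521 in an intron of *Slc24a2*, 173 kb from the start of *Acer2*, at chr4:89044051-89044350 between genes, 92.9 kb from *Mtap*, and at chr2:155850171-155850470 in an intron of *Uqcc1*, 15.5 kb from *Fam83c*.
Acer2 gained: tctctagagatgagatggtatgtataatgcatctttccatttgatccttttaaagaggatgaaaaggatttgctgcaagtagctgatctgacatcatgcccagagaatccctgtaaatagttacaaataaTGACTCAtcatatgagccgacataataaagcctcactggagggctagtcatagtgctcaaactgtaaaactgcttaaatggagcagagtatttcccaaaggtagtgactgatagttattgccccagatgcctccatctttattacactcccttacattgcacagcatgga
Mtap gained: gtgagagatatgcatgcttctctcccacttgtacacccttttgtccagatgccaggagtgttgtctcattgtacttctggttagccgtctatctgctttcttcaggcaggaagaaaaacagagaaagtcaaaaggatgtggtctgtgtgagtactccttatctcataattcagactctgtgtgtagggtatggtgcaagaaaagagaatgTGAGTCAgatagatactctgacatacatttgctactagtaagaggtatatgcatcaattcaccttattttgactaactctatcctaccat
Fam83c gained: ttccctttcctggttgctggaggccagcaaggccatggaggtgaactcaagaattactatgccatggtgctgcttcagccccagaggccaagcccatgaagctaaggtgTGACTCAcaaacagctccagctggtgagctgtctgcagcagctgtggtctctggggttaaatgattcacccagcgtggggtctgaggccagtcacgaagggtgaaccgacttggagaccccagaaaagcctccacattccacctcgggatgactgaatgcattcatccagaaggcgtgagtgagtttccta

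The second set holds the 3 highest-scored lost distal regions, which had no treated peak. None has an AP1 match in the window, and the region at chr5:15600421-15600677, 18.5 kb from *Speer4d* in introns of *Gm21847* and *Gm30613*, has a CTCF match. The others lie at chr4:89078580-89078855 in an intron of the noncoding gene *Wincr1*, 58.4 kb from *Mtap*, and at chr12:71748749-71749032 between genes, 82.2 kb from *Daam1*.
Mtap lost: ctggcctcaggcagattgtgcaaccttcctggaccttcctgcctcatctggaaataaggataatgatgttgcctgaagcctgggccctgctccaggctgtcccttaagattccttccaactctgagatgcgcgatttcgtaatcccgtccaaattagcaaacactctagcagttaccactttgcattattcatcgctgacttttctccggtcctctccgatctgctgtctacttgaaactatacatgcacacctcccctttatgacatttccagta
Speer4d lost: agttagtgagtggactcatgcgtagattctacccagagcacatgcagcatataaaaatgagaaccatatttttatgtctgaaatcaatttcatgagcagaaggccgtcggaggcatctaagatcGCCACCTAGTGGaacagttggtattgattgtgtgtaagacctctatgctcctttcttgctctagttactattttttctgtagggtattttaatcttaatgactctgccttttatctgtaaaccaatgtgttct
Daam1 lost: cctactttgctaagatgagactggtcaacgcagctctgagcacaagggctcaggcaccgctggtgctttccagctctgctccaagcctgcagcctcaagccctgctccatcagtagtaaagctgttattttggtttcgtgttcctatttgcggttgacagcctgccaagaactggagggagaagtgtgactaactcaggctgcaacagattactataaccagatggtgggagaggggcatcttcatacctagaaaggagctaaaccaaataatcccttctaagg

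The third set belongs to genes of the EMT programme and to the site whose rank rose most. The *Fn1* region at chr1:71667477-71667776 and the *Etv4* region at chr11:101768722-101769008 are gained sites with AP1 matches (1 and 2). The *Esrp2* region at chr8:106140828-106141061 is a gained site with a CTCF match. The *Fn1*, *Etv4* and *Esrp2* regions count as gained in the full lists only. The region at chr13:28823548-28823847, in an intron of *2610307P16Rik* and 130 kb from *Sox4*, was open in all 4 libraries and had the largest rise of rank. It was added to the sequences after its values had been seen.
Fn1 gained: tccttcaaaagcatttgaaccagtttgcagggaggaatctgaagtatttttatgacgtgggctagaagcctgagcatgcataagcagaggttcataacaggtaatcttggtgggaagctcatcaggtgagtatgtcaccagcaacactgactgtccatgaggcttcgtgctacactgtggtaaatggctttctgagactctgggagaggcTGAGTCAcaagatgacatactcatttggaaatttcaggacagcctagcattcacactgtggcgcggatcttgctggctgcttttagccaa
Etv4 gained: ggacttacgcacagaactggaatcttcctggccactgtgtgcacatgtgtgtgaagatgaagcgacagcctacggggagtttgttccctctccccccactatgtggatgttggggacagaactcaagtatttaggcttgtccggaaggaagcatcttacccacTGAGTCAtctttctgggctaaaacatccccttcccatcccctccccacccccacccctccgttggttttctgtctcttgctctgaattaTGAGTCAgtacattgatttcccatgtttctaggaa
Esrp2 gained: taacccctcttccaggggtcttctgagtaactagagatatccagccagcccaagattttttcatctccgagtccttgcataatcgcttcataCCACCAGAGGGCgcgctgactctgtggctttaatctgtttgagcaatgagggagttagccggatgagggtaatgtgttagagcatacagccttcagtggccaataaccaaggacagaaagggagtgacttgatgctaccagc
Sox4 shared: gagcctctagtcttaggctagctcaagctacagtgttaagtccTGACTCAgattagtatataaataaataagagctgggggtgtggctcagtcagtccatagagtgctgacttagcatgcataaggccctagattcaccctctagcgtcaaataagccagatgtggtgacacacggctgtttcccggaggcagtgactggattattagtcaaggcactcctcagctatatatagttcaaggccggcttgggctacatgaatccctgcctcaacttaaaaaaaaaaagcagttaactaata

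How many sites opened and closed with TGF-β was read from the gained and lost regions. By the full lists, 41.9% of the regions open in treated cells were gained (6305 of 15038, Wilson 95% interval 41.1 to 42.7) and 18.3% of the regions open in untreated cells were lost (1960 of 10683, 17.6 to 19.1), 3.22 gained for each lost. With equal lists, 33.2% were gained (3297 of 9943) and 29.3% lost (2761 of 9408), 1.19 gained for each lost. The excess of gained over lost regions was thus mostly absent from lists of 1 length. Cutting every list to 1 length brings the numbers of open regions close (9943 and 9408), so a near-even ratio follows largely from the cut. It does not show whether TGF-β opened more sites than it closed. At or above the pooled median score, 4456 regions were gained and 801 lost, a limit that keeps more peaks of libraries with higher scores. The intervals cover counting error within the lists only, not the spread between libraries.

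Many gained and most lost regions had been called in 1 library of the other treatment. Of the gained regions, 2848 (45.2%) had no peak in either untreated library, and of the lost regions 346 (17.7%) had none in either treated library. Treated replicate 1 had a peak in 74.8% of the lost regions and treated replicate 2 in 7.5%. Most lost regions were therefore missing from 1 treated list only. In equal lists, 1211 regions were gained and 976 lost without any peak in the other treatment, 1.24 to 1.

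The difference between treatments was set beside that between replicates. In equal lists, 27.7% to 27.8% of the peaks of a treated library had no counterpart in the other treated library, and 31.6% between the untreated libraries. Between a treated and an untreated library the share was 31.8% to 35.2% over the 4 pairs and both directions, so that its low end nearly met the share between the untreated replicates. On the log2 scale the number of peaks was 14.07 and 13.75 in the untreated and 14.74 and 14.04 in the treated libraries, a difference of 0.48. Untreated replicate 1 lay above treated replicate 2, so that the groups overlapped (two-sided exact permutation of the 4 libraries, p = 0.667, where no p can be below 0.333).

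Gained regions lay away from promoters more often than lost regions. A region was counted as promoter when its midpoint lay within 2 kb of a transcription start site (TSS). Promoters made up 26.1% of gained regions (25.01 to 27.17), 42.6% of lost regions (40.4 to 44.8) and 44.9% of shared regions. Introns held 38.1% of gained, 27.7% of lost and 28.7% of shared regions, and intergenic DNA 33.4%, 27.8% and 24.98%. In equal lists the promoter share was 28.0% (26.5 to 29.6) of gained and 43.9% (42.1 to 45.8) of lost regions. Without treated replicate 1 it was 26.1% of gained and 42.8% of lost regions. Without treated replicate 2 the shares were 26.3% and 36.9%, a smaller difference (−10.6 against −16.5 points) in the same direction.

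The same difference was seen per library. Promoter peaks were 41.0% and 42.3% of the untreated lists and 33.2% and 36.1% of the treated lists, a difference of −7.04 percentage points (means 41.7 ± 0.93 and 34.6 ± 2.00, SD, n = 2 each). Both treated libraries lay below both untreated ones. The same exact test gave p = 0.333, the smallest it can give. In equal lists the values were 44.0% and 42.3% untreated and 39.6% and 38.2% treated.

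Both gained and lost promoter regions were less often rich in CpG than shared ones, gained ones more so. Of the shared promoter regions, 79.6% were rich in CpG (at least 20 CpG in 500 bp), as is usual for broadly expressed genes. The share was 57.7% (55.3 to 60.1) of gained and 70.3% of lost promoter regions. Without a peak in the other treatment it was 41.5% (37.3 to 45.9) of gained and 58.5% (49.7 to 66.9) of lost promoter regions. The AP1 motif stood in 20.6% of gained and 11.9% of lost promoter regions, and an ETS motif (CCGGAAG and its close forms, bound by factors such as Etv4 and Elk1) in 28.6% and 35.9%.

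At distal regions the AP1 motif was the most frequent of the 10 motifs searched. It was found in the 500 bp around the midpoint of 56.3% of gained distal regions (54.9 to 57.7, of 4661), against 8.03% of control windows 10 kb away, a ratio of 7.01. Of the gained distal regions, 43.1% had 1 match, 11.8% had 2 and 1.37% had 3 or more. The share was 40.8% of lost distal regions (38.0 to 43.7, of 1125) and 59.7% of shared ones (58.3 to 61.1). Lost regions were thus lower than both other classes, and gained regions were slightly lower than shared ones. Regions gained without an untreated peak had it in 57.6%, and regions lost without a treated peak in 29.6% (24.0 to 35.9, of 223).

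The CTCF motif showed the opposite order. It stood in 3.30% of gained (2.83 to 3.86), 7.56% of lost (6.15 to 9.25) and 2.33% of shared distal regions, and in 0.293% of all 10234 control windows. Of the leading lost distal sites, that near *Speer4d* had a match, as printed above.

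Equal lists gave the same contrasts. AP1 stood in 61.4% of gained and 46.0% of lost distal regions, and CTCF in 2.19% and 6.39%. Without treated replicate 1, AP1 was found in 52.5% of gained and 41.6% of lost distal regions, and CTCF in 4.49% and 7.40%. The other motifs differed less between gained and lost distal regions in equal lists. RUNX (TGTGGTT, the site of Runx1 to Runx3) was found in 20.0% and 17.2%, TEAD (ACATTCC, read with YAP and TAZ) in 12.9% and 14.6%, and ETS in 9.73% and 10.7%. The Smad palindrome GTCTAGA stood in 4.42% and 4.07%, beside 4.56% of all control windows. All motifs were searched on both strands. A match is a description of the letters and shows no binding.

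Per library, AP1 was found in 50.2% and 51.6% of distal peaks in untreated and 51.8% and 55.4% in treated cells, a difference of 2.70 points. In equal lists it was 51.7% and 51.6% against 59.4% and 57.0%, a difference of 6.58 points. CTCF in equal lists was 5.79% and 4.52% untreated against 2.74% and 3.64% treated. In each of these the treated libraries lay on 1 side of the untreated (exact permutation tests, two-sided, p = 0.333, the smallest possible, and 0.667 in the full and 0.417 in the equal lists after Benjamini-Hochberg adjustment over 10 motifs). For CTCF in the full lists the groups overlapped (5.63% and 4.52% against 4.79% and 3.56%, exact p = 0.667).

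**Figure D2:**
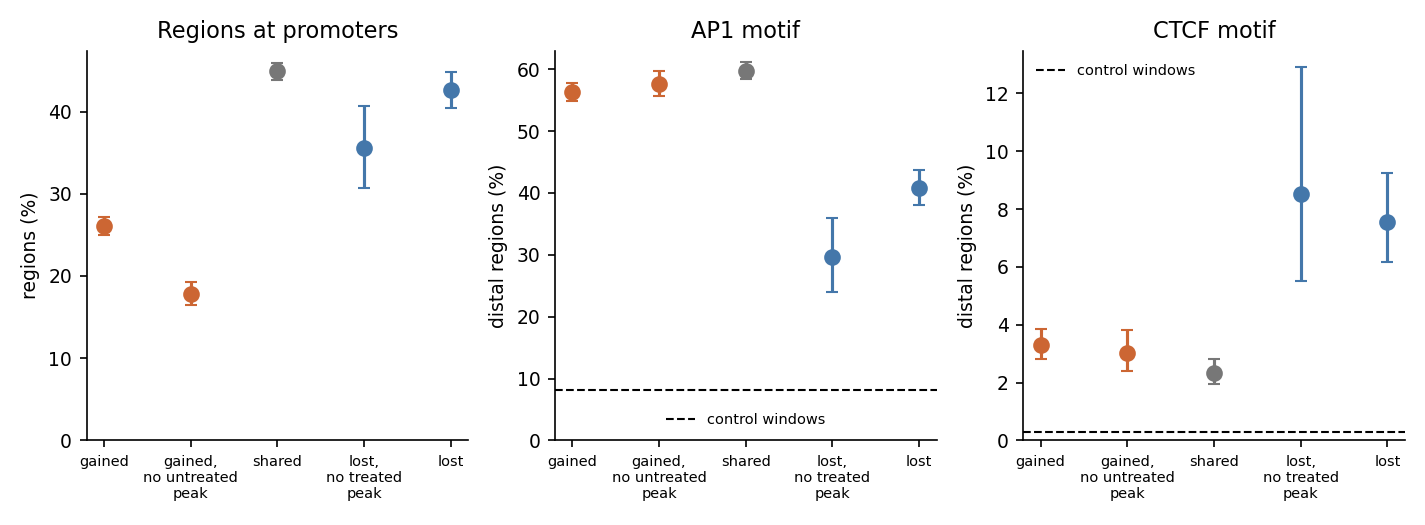
Share of regions at promoters, and share of distal regions with an AP1 or a CTCF motif, in percent for gained, lost and shared regions (points, with 95% Wilson intervals), and for those without a peak in the other treatment. Gained regions lie below lost regions in promoter share (26.1% and 42.6%) and in CTCF (3.30% and 7.56%) and above them in AP1 (56.3% and 40.8%), and the dashed lines mark the control windows.

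At the 8715 shared regions the scores of the peaks could be compared. In the full lists the mean percentile of the score within its list (0 for the lowest, 100 for the highest peak) was higher with TGF-β by a median of 6.28 points. Both treated libraries lay above both untreated ones at 27.7% of the regions (2416) and below both at 9.03% (787). On the score itself the median difference was 6.45, with 39.1% above and 2.60% below. The shift depended on list length. In equal lists (6644 shared regions) the median was 0.44 points, with 18.6% above (1233) and 16.9% below (1123), nearly even.

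Within the equal lists, distal and promoter regions moved apart in rank. Ranks within a list are relative, so that a rise at some regions lowers the ranks of others. The median change was 2.83 points at the 3513 distal regions and −1.19 at the 3131 promoter regions. Of the distal regions 22.0% lay above and 13.9% below in both treated libraries, and of the promoter regions 14.7% and 20.3%. In all 4 pairings of a treated with an untreated library the distal median was above 0 (1.53 to 2.75) and the promoter median below 0 (−2.36 to −0.11). Without treated replicate 1 the medians were 3.23 and −0.68, and without treated replicate 2 they were 4.24 and 0.32, so that the promoter median changed sign while distal regions stayed above promoters. The score itself, in the full lists, was higher with TGF-β at both, by a median of 6.82 at distal and 5.975 at promoter regions. On the score, 33.6% of promoter regions lay above and 2.71% below in both treated libraries. A lower rank of promoters is therefore no fall of their scores. AP1 stood in 67.1% (63.7 to 70.3) of the 772 distal regions where both treated libraries ranked above both untreated, and in 54.2% (49.8 to 58.6) of the 487 where they ranked below.

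**Figure D3:**
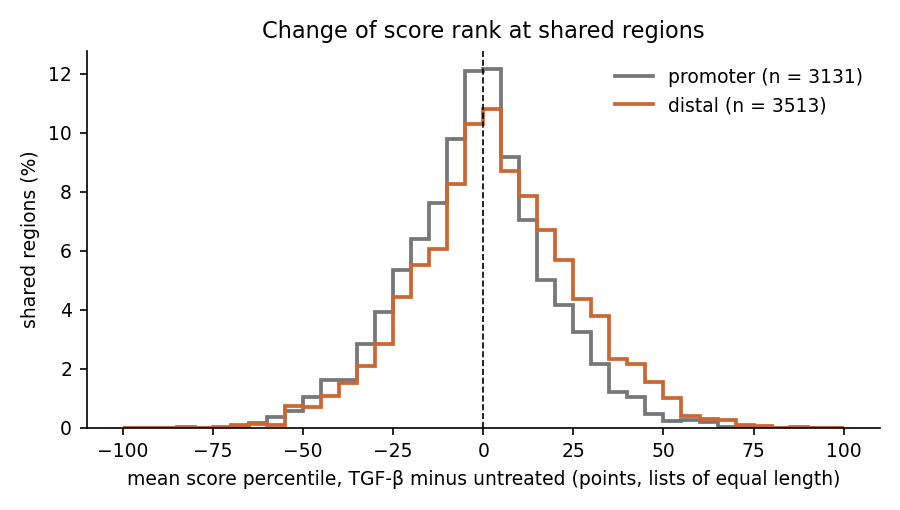
Distribution of the change of score percentile (treated mean minus untreated mean, in points, equal lists) at the shared promoter and distal regions, as the share of regions in each bin. The distal curve lies to the right (median 2.83) of the promoter curve (median −1.19), and both are broad.

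The gained regions with the highest scores without an untreated peak all lay outside promoters, in introns or between genes. The region near *Acer2*, a ceramidase gene, scored 60.23 and 33.9 in the treated libraries and that near *Mtap*, a gene of methionine salvage, 46.09 and 38.75. A region 7.47 kb from *Ccn4*, which encodes a secreted matricellular protein, scored 48.86 and 23.88. A region in an intron of *Mical2*, an actin-oxidising enzyme, 35.6 kb from the nearest of its start sites, scored 38.71 and 30.86. One 377 kb from *Jag1*, a Notch ligand, scored 36.13 and 29.99. The others of the leading 10 were near *Fam83c*, *Il12b*, *Naa11*, *Tas2r138* and *Pcdh10*. Each of the 10 had at least 1 AP1 match, beside 57.6% of all distal regions gained without an untreated peak. The genes named are the nearest protein-coding ones and need not be the ones served.

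Among the gained promoters of named genes, that of *Taok3* (a kinase of the MAPK cascade) scored 31.58 and 29.97 in the treated libraries and that of *Tubb5* (a β-tubulin) 28.9 and 25.06. Others were *U2af1l4*, *Scn2a* and *Gnb4*. Start sites of noncoding or unclassified genes lay closest to 5 of the remaining promoter regions, near *Abcb1b*, *Tuba1b*, *Smim24*, *Pgf* and *Tulp4*.

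The leading lost regions were promoters more often. Those of *Vps33b* (a protein of vesicle sorting) scored 19.45 and 30.02 in the untreated libraries, of *Cyb561d1* 28.11 and 18.95, and of *Ddx56* (an RNA helicase) 29.89 and 15.55. *Insr*, the insulin receptor, scored 20.64 and 17.8 and *Dvl2*, a Wnt signal transducer, 16.98 and 19.48. The leading distal lost regions, printed above, scored 20.51 and 20.53 (*Mtap*), 21.86 and 18.07 (*Speer4d*) and 19.32 and 19.55 (*Daam1*). Of the leading 10 lost regions, most of them promoters, 0 had an AP1 match. Among all regions lost without a treated peak, AP1 stood in 4.88% of promoter and 29.6% of distal ones. The scores of the leading lost regions were mostly below those of the leading gained regions. The leading 10 were drawn from 346 lost but 2848 gained regions, and the scores of treated replicate 1 were higher throughout.

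At shared regions the largest rise of rank was at the site 130 kb from *Sox4*, which encodes a transcription factor of progenitor cells and EMT. It scored 11.66 and 7.86 in the untreated and 40.29 and 28.83 in the treated libraries, and had no peak in an EpH4 library. A region 24.3 kb from *Cdkn2a*, the locus of cell cycle inhibitors, scored 12.53 and 9.77 untreated and 36.35 and 34.44 treated, and holds 3 AP1 matches. The next was 64.5 kb from *Lrrc32*, whose product tethers latent TGF-β at the cell surface, with 12.71 and 8.39 untreated and 33.63 and 32.0 treated. A region 13.1 kb from *Smurf1*, a ubiquitin ligase that removes Smads and receptors, scored 13.43 and 9.08 untreated and 44.74 and 23.68 treated. Only regions where both treated libraries ranked above both untreated ones in equal lists were eligible (18.6% of those shared). That order of ranks was therefore fixed by the selection.

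The largest falls of rank were smaller in score. They were likewise taken only from regions where both treated libraries ranked below both untreated ones (16.9%). The promoter of *Elmod2* scored 28.7 and 22.82 untreated and 19.3 and 12.73 treated, and that of *Zfp597* 20.97 and 18.95 untreated and 18.52 and 12.31 treated. At *Fam117a* (20.64 and 25.4 untreated, 20.82 and 12.42 treated) the scores overlapped although the ranks did not, since ranks were taken within each list and the scores of treated replicate 1 were higher throughout. Other large falls of rank lay near *Tjap1*, *Cdc42ep2*, *Hif1an* and *Tigd2*.

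**Figure D4:**
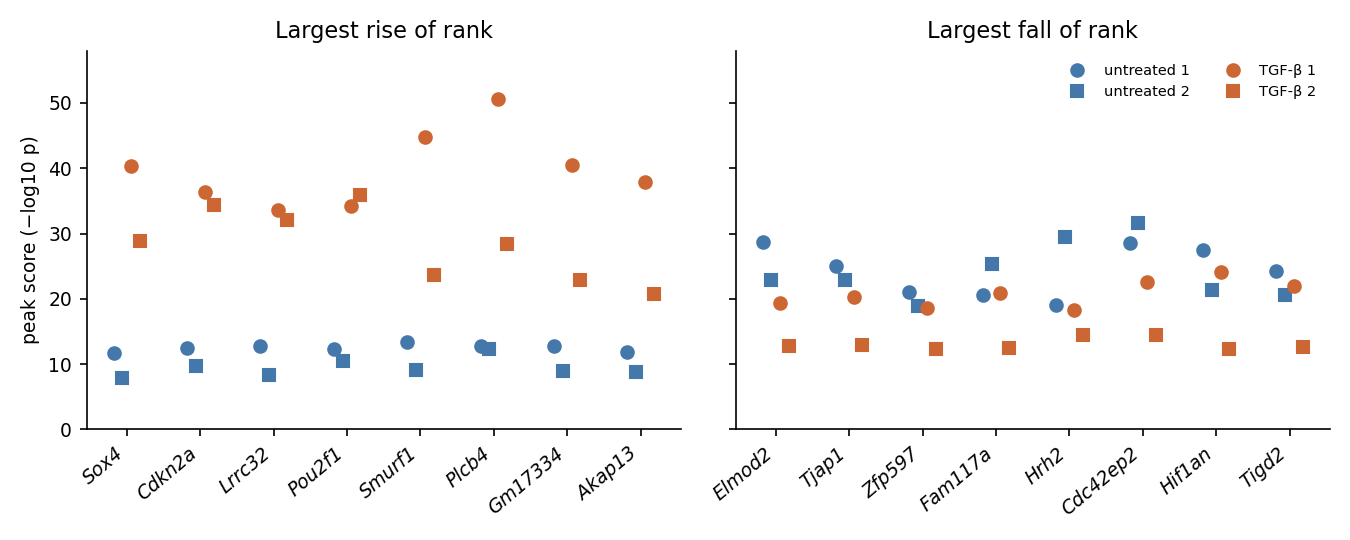
Peak scores (−log10 p) in the 4 EpRas libraries at the 8 shared regions with the largest rise and the 8 with the largest fall of rank, 1 point per library, named by the nearest protein-coding gene. Only regions whose treated libraries both ranked above, or both below, the untreated ones were eligible, so the separation of ranks is set by the selection. At the rises, such as *Sox4* and *Cdkn2a*, both treated points lie far above both untreated points. At falls such as *Fam117a* the circle of treated replicate 1 lies among the untreated points.

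Some genes gathered many gained regions, counted by the nearest start site within 100 kb. *Sept9* (a septin of the cytoskeleton), *Mast4*, *Rgs3* (which damps G protein signals) and *Mical2* had 8 each. *Specc1*, *Azin1* and *Mtap* had 6. *Clasp1*, which stabilises microtubule ends, had peaks in 0 and 1 regions in the untreated and 5 and 5 in the treated libraries. *Crybg1* had the most lost regions, 4, followed by *Dst*, *Sfi1*, *Pfkp* and *Fam50b* with 3, and its regions numbered 7 and 7 untreated and 5 and 3 treated.

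The loci that the study followed through EMT held at most 1 gained and 1 lost region each. In equal lists none of these loci held a gained region, while *Mmp13* and *Gapdh* kept 1 lost region each. Loci are gene spans with 20 kb on either side. *Cdh1*, which encodes E-cadherin, had 2 and 1 peaks untreated and 1 and 1 treated, and its 1 shared region, in an intron, scored 12.88 and 16.05 untreated and 32.76 and 14.64 treated, so that the groups overlapped. *Cdh2*, which encodes N-cadherin, had 2 and 1 peaks untreated and 2 and 2 treated, with no region open in both replicates of either condition. At *Fn1*, the fibronectin gene, the gained region 14.4 kb upstream, whose sequence is given above, scored 12.73 and 7.75 treated, but untreated replicate 2 had a peak of 12.07 there. The *Fn1* promoter scored 12.37 and 18.39 untreated and 28.89 and 13.0 treated, and again overlapped.

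*Esrp2*, an epithelial splicing regulator, had a gained region 3.97 kb away with no untreated peak (13.29 and 13.9). *Mmp13*, a collagenase, had a lost region 13.8 kb away (13.88 and 11.29), where treated replicate 1 nevertheless had a peak of 27.15. At *Etv4*, which encodes an ETS factor, the gained region 16.4 kb away had no untreated peak (15.8 and 15.09), while the promoter scored 24.84 and 48.75 untreated and 64.42 and 40.97 treated. The *Etv5* promoter scored 23.14 and 22.33 untreated and 34.95 and 37.4 treated. On the score both treated libraries lay above both untreated ones there, as at 39.1% of all shared regions. Its percentiles in equal lists overlapped, at 79.8 and 85.3 untreated and 76.1 and 97.0 treated. *Gapdh*, a housekeeping gene, had 1 gained and 1 lost promoter region.

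The TGF-β pathway and its targets were counted by locus. Over all 21951 protein-coding genes, 25.2% had a gained and 11.7% a lost region in the locus (11.4% and 2.17% for regions without a peak in the other treatment), and in equal lists 15.9% and 16.1%. Long genes hold more regions, and the median span was 17.4 kb over all genes. A list of 10 housekeeping genes, with a median span of 5.08 kb, had gained regions at 6, so that shares of this size also occur in genes unrelated to TGF-β.

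Of the ligands and latency proteins, 3 of 15 genes had a gained and 4 a lost region (1 and 4 in equal lists). *Ltbp1*, which holds latent TGF-β in the matrix, had 9 and 9 peaks untreated and 16 and 11 treated, with 4 gained regions, 3 of them without an untreated peak, and 1 lost. *Inhbb*, an activin subunit, had 2 lost regions, with 3 and 3 peaks untreated and 1 and 2 treated. *Gdf15* had 2 gained promoter regions (14.16 and 13.9, and 16 and 16 treated) nearest to *Ssbp4*. Of the 13 receptors only *Bmpr1b* had a gained region and none had a lost one (2 and 3 in equal lists), and *Tgfbr1* and *Tgfbr2* had 1 peak in each of the 4 libraries.

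Of the Smads and their regulators, 10 of 19 genes had a gained and 2 a lost region, beside 25.2% and 11.7% of all genes, but in equal lists 5 had a gained and 5 a lost region. Their median span was 68.5 kb. *Smad3*, the receptor-activated Smad, had 6 gained regions, each also called in 1 untreated library, with 10 and 5 peaks untreated and 11 and 10 treated. *Ldlrad4* and *Nedd4l*, both of which restrain Smad signalling, had 7 and 5 gained regions. *Ldlrad4* had 6 and 5 peaks untreated and 16 and 9 treated, while *Nedd4l* had 3 and 7 untreated and 10 and 6 treated, with overlap. These are counts in the full lists, of which that of treated replicate 1 was the longest. *Smad2* and *Smad4* had no peak in any library.

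Of the known target genes, 12 of 21 had a gained and 4 a lost region (6 and 7 in equal lists). *Ccn2*, a matricellular protein gene and a classical TGF-β target, had 3 gained regions, with 2 and 1 peaks untreated and 4 and 3 treated. That 5.99 kb from its start scored 9.86 in untreated replicate 1 and 32.22 and 18.07 treated. *Pmepa1*, a feedback inhibitor, had 3 and 2 peaks untreated and 6 and 3 treated. *Id1*, which TGF-β represses in many epithelia, had 2 lost regions, both still called in treated replicate 1 (18.91 and 24.03) and absent from treated replicate 2.

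Matrix genes and integrins had gained regions in more than 25.2% of their loci. Of 28 collagen, matrix and crosslinking genes 18 had a gained and 6 a lost region, and of 15 integrins 10 and 3. In equal lists the numbers were 10 against 6 and 7 against 4. Without untreated replicate 2 they were 14 against 15 and 8 against 8, without an excess of gained regions, beside 16.0% and 29.8% of all genes. Their median spans, 75.3 kb and 82.5 kb, were among the longest, and the part of length in these counts was not tested. *Itgb3*, the integrin β3 chain, had 3 and 3 peaks untreated and 8 and 7 treated, with 5 gained regions. That in its coding exon scored 9.51 in untreated replicate 1 and 42.06 and 27.4 treated. *Itga5*, the fibronectin receptor chain, had 1 and 1 peaks untreated and 4 and 3 treated. *Col1a1*, a fibrillar collagen gene, had 3 gained regions, 1 of which scored 10.33 in untreated replicate 2 and 35.01 and 16.41 treated. *Itga6*, a laminin receptor chain of epithelium, had 2 lost regions, both still called in treated replicate 1.

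Of 23 matrix proteases and inhibitors 13 had a gained and 3 a lost region (7 and 5 in equal lists). *Adam19* had 2 and 1 peaks untreated and 7 and 5 treated, with 3 of its 4 gained regions free of untreated peaks, and *Plat*, the tissue plasminogen activator, 1 and 1 untreated and 5 and 3 treated. Of 22 mesenchymal and contractile genes 10 had a gained and 4 a lost region, but 7 and 9 in equal lists.

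Of 14 transcription factors of EMT 2 had a gained region (*Tcf4* and *Zeb2*), beside 25.2% of all genes, and without treated replicate 2 the number was 6, beside 50.7% of all genes. Of the 14, 11 had a gained, lost or shared region in the locus, and the loci held 17 shared regions in all. *Snai1* had 2 and 2 peaks untreated and 3 and 4 treated, and *Snai2* 1 in each library. In equal lists 0 of the 14 had a gained region.

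Epithelial genes had both gained and lost regions. Of 31 junction and polarity genes 12 had a gained and 7 a lost region (5 and 6 in equal lists). *Cldn4*, a claudin, had 4 gained regions, 3 of them without an untreated peak, with 4 and 3 peaks untreated and 7 and 7 treated, and 1 lost region. Of 20 identity and splicing factors 6 had a gained and 1 a lost region (4 and 3 in equal lists), among them *Grhl2* with 2 gained introns and *Elf3*. Of 12 keratins the counts were 5 and 1 (2 and 1 in equal lists).

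Among the families whose motifs were searched, 8 of 17 AP1 genes had a gained and 5 a lost region, and 3 and 5 in equal lists. *Bach1*, a repressor that competes at related sites, had 1 and 0 peaks untreated and 5 and 3 treated, with 3 gained regions free of untreated peaks, while *Fos* had a gained region 12.2 kb away (17.21 and 17.76). Of 23 ETS genes 10 had a gained and 4 a lost region, but 5 and 4 in equal lists. *Etv6* had 0 and 0 peaks untreated and 4 and 5 treated, and its 4 gained intronic regions scored 9.51 and 12.31, 29.08 and 12.31, 11.51 and 14.43, and 19.23 and 14.43. Of the RUNX, NFI and CEBP genes 7 of 12 had a gained and 5 a lost region, but 3 and 6 in equal lists. Of the TEAD and YAP pathway 7 of 15 had a gained and 5 a lost region, but 4 and 6 in equal lists. *Runx2* had 7 and 5 peaks untreated and 10 and 8 treated. Of 25 Ras, MAPK feedback and EGF family genes 12 had a gained and 4 a lost region (8 and 8 in equal lists), with 2 gained at *Dusp1*, a MAPK phosphatase, and of 14 cell cycle genes 4 had a gained and 1 a lost region, but 1 and 3 in equal lists.

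**Figure D5:**
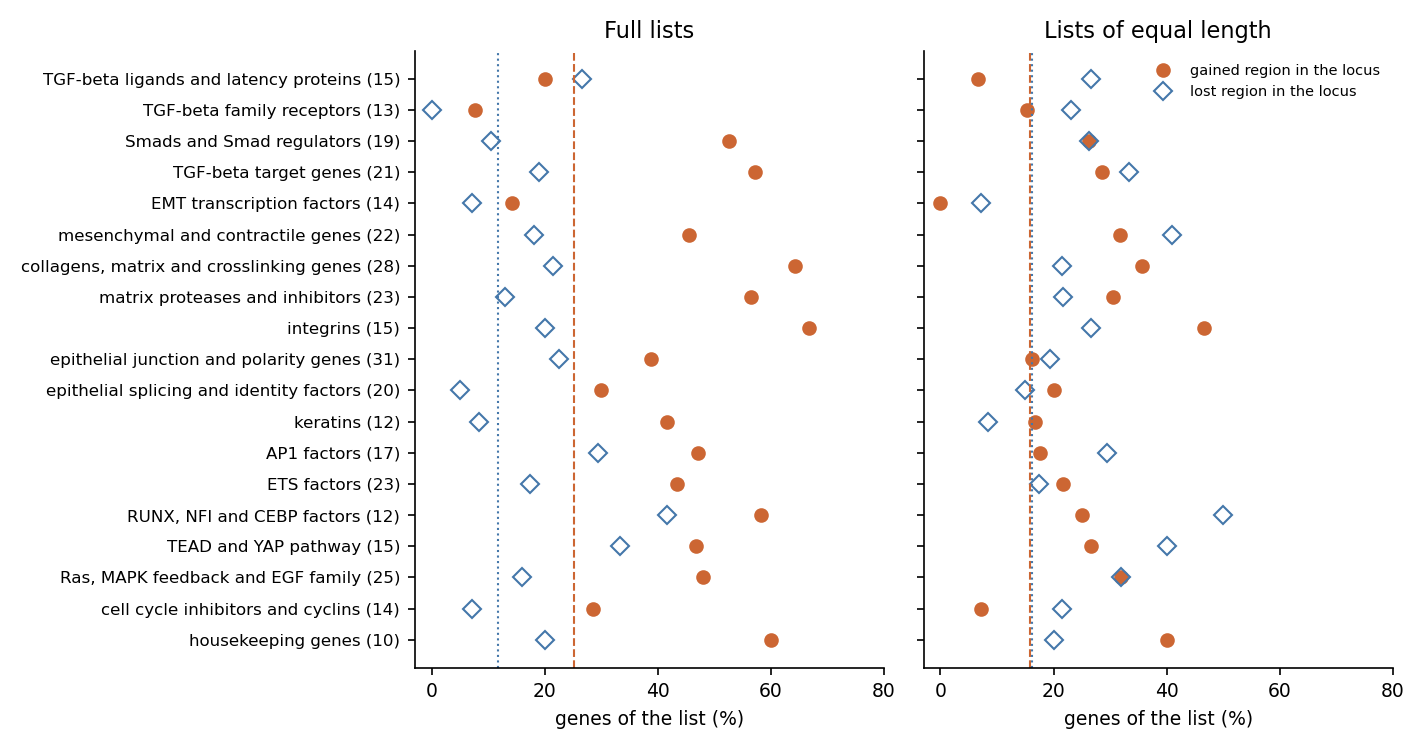
Share of the genes of each list (number of genes in brackets) with a gained region (circles) and with a lost region (diamonds) in the locus, for full and equal lists, with lines at the shares over all protein-coding genes (25.2% gained and 11.7% lost in the full lists). Most circles lie above the line in the full lists, housekeeping genes included (6 of 10), and circles and diamonds lie closer together in equal lists.

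Many of the gained regions also had a peak in at least 1 EpH4 library, a looser count than a call in both replicates. A peak of some EpH4 library lay in 59.2% of gained, 69.2% of lost and 91.6% of shared regions. Gained regions had one in 46.5% and 26.0% in the treated EpH4 replicates 1 and 2, and in 30.0% in each untreated one. At equal list lengths over all 8 libraries (10821 peaks), the shares were 26.9% and 26.0% treated and 25.5% and 24.4% untreated. For the gained regions without an untreated EpRas peak they were 17.1% and 17.8% treated and 14.8% and 13.4% untreated, with both treated EpH4 libraries above both untreated ones.

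Whether the response differed between the lines was tested per library. The promoter share changed by −7.04 points in EpRas and by −2.23 in EpH4 cells, a difference of −4.81 (exact permutation of line labels within treatment, two-sided, p = 0.167, where no p can be below 0.0556). The AP1 share changed by 2.70 and 1.20 points, a difference of 1.50 (p = 0.778, same exact test), and the log2 peak number by 0.48 and 0.12 (exact p = 0.667). With 10821 peaks per list the differences were −3.69 points for promoters (exact p = 0.111), 4.92 for AP1 (exact p = 0.333) and −1.91 for CTCF (exact p = 0.167). With 36 assignments none of these tests could pass 0.05, and line and serum content cannot be told apart in the differences. The EpH4 cells had 1.20 gained regions for each lost in the full lists.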

How the data were processed

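FAIRE DNA of 4 EpRas libraries, and of 4 EpH4 libraries for comparison, had been sequenced on an Ion Proton instrument. According to the study's methods, reads were trimmed and aligned with Bowtie2, and MACS2 (2.0.9, per the submitters' processing notes, build mm10) called peaks under 1 limit of the q-value. Use of a control and treatment of duplicates are not given in the sources used here. The deposited files are peak lists, 1 per library without pooling, in which the authors' score is the −log10 of a Poisson p-value. This unit was not stated and was read from the values: under a score of 25, between 24.7% and 37.7% of the scores of a library lay within 0.015 of the values that whole read numbers give at 1 background rate, and 1.25% to 3.11% at a rate 7% higher. That rate served as the background coverage. The lists hold no read counts, so depth is unknown.

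Peaks were placed on GRCm38.p6 with GENCODE vM21 (basic set, 77198 start sites). Overlap was at least 1 bp. Percentiles were taken within a list. Motifs were searched in 500 bp around midpoints, and in control windows shifted by 10 kb that touched no peak. The region classes and the score ladder were tested on simulated data. The motif scan (AP1 and RUNX only) and the permutation tests were checked on short fixed inputs. Python 3.11.15, numpy 2.4.6, scipy 1.17.1 and pysam 0.24.0 were used. Sequences are from the reference genome.

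Tests were exact permutations over libraries (6 assignments, smallest p 0.333) and of line labels (36, 0.0556). Named were the 10 highest-scored gained and lost regions and promoter regions without a peak in the other treatment, the 8 largest rises and falls of rank, the genes with most gained (10) or lost (5) regions, 8 genes of the study, and in each list up to 4 genes with most gained and 2 with most lost regions. The rises and falls were ranked only among shared regions whose treated libraries both lay above, or both below, the untreated ones in equal lists. Ties were broken by order. Some genes that the rule picks are not reported here. The members and lists were chosen with earlier results of these data known. Alternatives were equal lists, a limit at the pooled median score, a stricter overlap, no peak in either library of the other treatment, narrower promoter, locus and motif windows, the replicate block, and leaving out each library. Not every alternative was run for every result.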

Additional observations from a re-analysis of the deposited data

How the results depend on the processing

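The counts of gained and lost regions moved with list length and single libraries. The differences between gained and lost regions in promoter, AP1 and CTCF share kept their direction in every setting where they were computed. These settings were equal lists, no peak in the other treatment, each library left out and, for the motifs, the narrower window. The limit at the pooled median score, the stricter overlap and the narrower promoter were not run for these differences. Gained regions were 6305 in the full lists, 3297 in equal lists, 2848 without a peak in either untreated library, and 3939 to 17117 with 1 library left out (7931 without treated replicate 1). Lost regions were 1960, 801 above the pooled median score, 346 without a peak in either treated library, and 493 to 6080 with 1 library left out (1817 without treated replicate 1). Leaving out a library compares a whole list of 1 treatment with regions called in both libraries of the other, so these counts shift by construction. Without untreated replicate 2, gained regions (3939) were fewer than lost ones (6080). The gained share was 59.6% above the pooled median score and 26.2% to 62.6% with 1 library left out, and the lost share 29.3% in equal lists and 4.61% to 35.3%. AP1 was higher in gained than lost distal regions by 15.5 percentage points, by 28.1 without a peak in the other treatment, by 24.0 for these in equal lists, and by 10.9 to 21.4 with 1 library left out (8.96 without treated replicate 1 in equal lists). For CTCF the difference was −4.25, −7.46 in equal lists without a peak in the other treatment, and −7.59 to −2.92 with 1 library left out (−2.26 without treated replicate 1 in equal lists). The median percentile change was 1.68 to 12.6 with 1 library left out, highest without treated replicate 2. Genes with a gained region were 5529, 3636 within 5 kb, 3482 in equal lists, and 3521 to 11137 with 1 library left out. The settings named with equal lists and no treated replicate 1, the motif and gene counts with 1 library left out, and equal lists for the difference between lines were chosen after seeing the data.

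With the replicate number as a block, treated minus untreated was −7.80 and −6.28 points in promoter share and 1.59 and 3.81 in AP1 share within the 2 pairs (sign-flip test, exact p = 0.5, the smallest possible), below which 2 pairs give no p, and nothing in the labels shows that the numbers mark shared cultures. The number of peaks differed by 0.67 and 0.29 on the log2 scale (exact p = 0.5). With 2 libraries a group, no test within EpRas cells gives a p under 0.333, and a site that missed the authors' limit cannot be told from a closed one.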

Other observations

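A stretch of chromosome 4 between 86 and 90 Mb, which holds *Acer2*, *Mtap* and *Cdkn2a*, stood out after the leading regions had been seen. Of the 50 regions ranked by score or change of rank, 5 lay there. The stretch held 116 and 104 peaks in the untreated and 150 and 122 in the treated EpRas libraries, against 54 and 62 in the untreated and 91 and 68 in the treated EpH4 libraries. As a share of the list this was 0.674% and 0.754% untreated and 0.549% and 0.725% treated in EpRas, and 0.433% and 0.474% untreated and 0.508% and 0.628% treated in EpH4 cells, so that the lines overlapped. The median score in the stretch was 21.4 and 20.6 untreated and 27.1 and 22.6 treated, above the medians of the whole lists (15.05, 14.92, 18.14 and 16.03). In EpH4 cells it was also above the list medians, at 15.9 and 16.6 against 14.53 and 14 untreated and 19.1 and 15.3 against 15.87 and 13.34 treated. Of its regions 33 were gained, 7 lost and 82 shared. Gained regions were 28.7% of the gained and shared, and lost regions 7.87% of the lost and shared, both below the 41.9% and 18.3% of the whole lists. The number of copies of this stretch in either line was not measured, and its part in the scores there was not tested.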
